A study of Apostichopus japonicus with 3 samples.

Results

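Transcripts of protein kinases and phosphatases were followed through summer dormancy, called aestivation, in the intestine of the sea cucumber Apostichopus japonicus. The unit of measurement was the isotig, an assembled transcript sequence, which takes its gene name from its best match in a protein database. An isotig was a member when the text of that match held 1 of 13 terms and held neither cyclin nor growth factor. The terms were protein kinase (also with a hyphen), S6 kinase, mitogen-activated, casein kinase, tyrosine kinase, AMP-activated, rapamycin, phosphoinositide, phosphatidylinositol 3, protein phosphatase, tyrosine phosphatase and 14-3-3. The rule found 169 of 20712 isotigs and used names alone. Of these, 137 were named as enzymes and 32 as regulatory subunits, inhibitors, adapters or other partners. The study sequenced intestinal mRNA in 1 library for each of 3 stages: non-aestivation as the active state, deep aestivation, and arousal from aestivation. The series' design names 15 or more animals for every stage. The sources used here do not give their pooling, genotype, age or treatment.

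Protein kinases attach phosphate to serine, threonine or tyrosine in other proteins, and protein phosphatases take it off again. Growth factor and insulin receptors signal through phosphoinositide 3-kinase, which makes a membrane lipid that recruits the kinases PDK1 and Akt, and from there to target of rapamycin (TOR), which sets protein synthesis through S6 kinases. Reversible phosphorylation is a known means by which dormant animals slow metabolism without making new enzymes. Transcript levels measure neither the activity of a kinase nor its phosphorylation. No file used here holds the sequence of an isotig, so members are given by name and number only.

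The libraries held 1.02 M uniquely aligned reads in non-aestivation, 0.893 M in deep aestivation and 0.945 M at arousal. With 1 library per stage there was no replicate spread and no test, so each difference is between libraries. Differences are log2 ratios of RPKM + 0.5, where RPKM is reads per kilobase of isotig scaled to the library total. A call of higher or lower needed 2-fold or more on that scale, and an exact binomial interval of the reads, at an error level of 0.001, that excluded equal shares. Folds of single isotigs are ratios of read shares with an exact 95% interval. Calls and intervals cover counting error only, because each stage has 1 library. They treat each read as a separate molecule. Reads from PCR with no molecular identifiers may copy 1 molecule, so the intervals may be too narrow even for counting error. The names of the deposited tables for arousal and non-aestivation are swapped relative to the sample labels, and the tables themselves do not settle which is right. All values follow the labels, and only a statement that deep aestivation was apart from both other libraries would hold under either reading.

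Of the 169 members, 141 had reads in all 3 libraries. The filter, a mean of at least 1 RPKM over the libraries, was passed by 149, and the 20 that did not pass had at most 4 reads in any library. Coverage was thin. The median member with any reads had 8 in non-aestivation, 15 in deep aestivation and 12 at arousal, so many differences were not detectable at this depth. The match texts and the submitters' gene ontology terms could be compared for part of the members. Of 72 kinase-named members with a function term, 60 carried a kinase activity, and of 31 phosphatase-named members with one, 25 carried a phosphatase activity or its regulation. The 169 members held 137 distinct best matches. The 57 members that share a match with another member may be pieces or forms of 1 gene. Sea urchin and acorn worm proteins were the most frequent matches, with 60 members matching Strongylocentrotus purpuratus and 27 matching Saccoglossus kowalevskii. No AMP-activated protein kinase was among the matches, since 0 of 20712 isotigs carried that name.

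Kinase and phosphatase transcripts that differed between deep aestivation and non-aestivation were all higher in deep aestivation, and most members were not called. Of 149 members, 28 (18.8%) were called higher and 0 lower, against 5.19% of all tested isotigs called higher and 4.06% called lower. The median log2 ratio of the members was 0.96, or 0.91 with members at 0 reads set to a bound, against 0.16 over all 18352 isotigs tested. Of all 8962 tested isotigs with a protein match, 666 were called higher and 337 lower. Members were longer than the average isotig (median 1067 bases, against 803) and more abundant (median of the mean RPKM 15.5 among those tested, against 12.1). Among isotigs with a protein match and at least 20 reads over both libraries, 26 of 87 members (29.9%) were called higher, against 13.4% of all such isotigs, and 0 members were called lower, against 7.1%. The calls lay in 6 of 10 role groups, with none among the 8 TOR and S6 kinase isotigs, the 22 tested serine/threonine phosphatases, the casein kinases and the 14-3-3 proteins. With other scalings of the libraries the same comparison called 25 to 32 members higher and at most 1 lower. The median member stood 0.78 to 0.80 above the median of all isotigs under these scalings. In whole tissue, fewer cells of a type and less RNA per cell cannot be told apart.

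**Figure D1:**
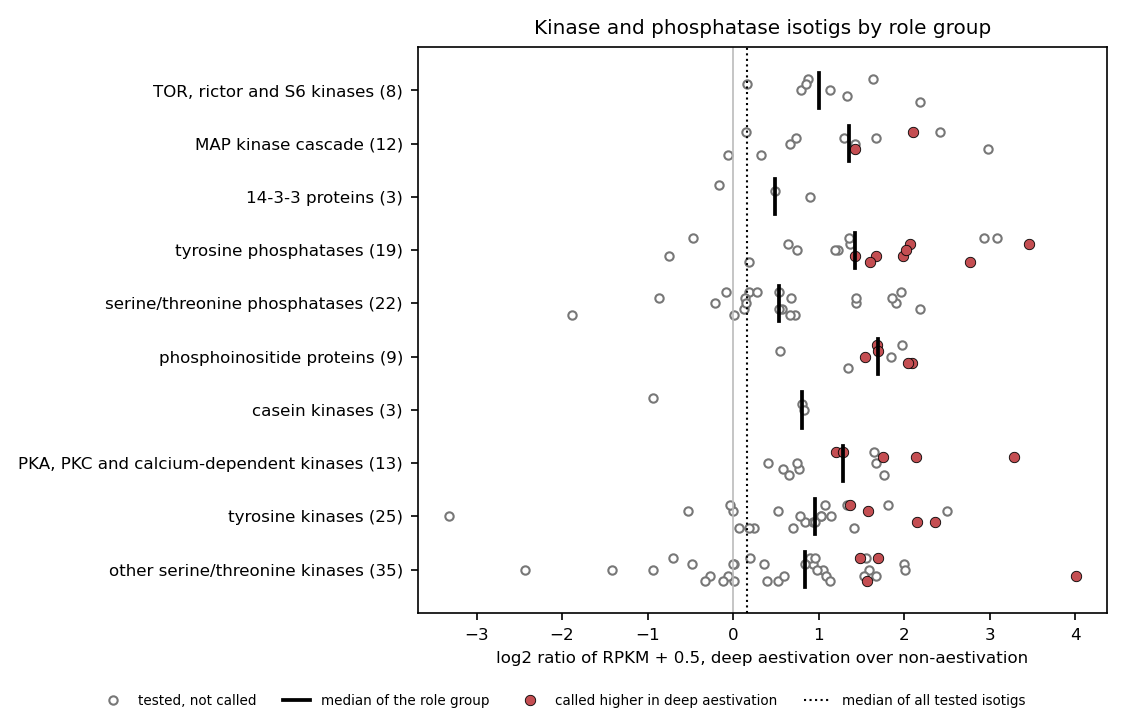
Log2 ratio of RPKM + 0.5 in deep aestivation over non-aestivation (x axis) for each member that passed the filter, by role group (number of isotigs in brackets); filled points were called higher, bars are group medians and the dotted line is the median of all tested isotigs, 0.16. The highest medians are those of phosphoinositide proteins (1.70) and tyrosine phosphatases (1.42), and no serine/threonine phosphatase is filled.

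Summed over all 169 members, kinase and phosphatase reads made up 0.363% of the non-aestivation library (exact 95% binomial interval 0.352 to 0.375), 0.612% of deep aestivation (0.596 to 0.628) and 0.508% of arousal (0.494 to 0.523). The deep aestivation share was the highest of the 3, and the intervals did not overlap. Role groups differed in how they stood at arousal. Tyrosine phosphatases made up 0.0172% of reads in non-aestivation, 0.0558% in deep aestivation and 0.0375% at arousal. Protein kinases A and C (PKA and PKC) with the calcium-dependent kinases made up 0.0418%, 0.0973% and 0.0318% in the same order. TOR, rictor and S6 kinases made up 0.00743%, 0.0156% and 0.0181%. By summed reads the arousal library was thus between the others for tyrosine phosphatases and lowest for the group with PKC. It was at the level of deep aestivation within counting error for the TOR group. In the group with PKC the low arousal sum rested on protein kinase C delta, 4 isotigs with 1 shared match. They held 314 of 427 reads in non-aestivation, 590 of 869 in deep aestivation and 123 of 300 at arousal. By isotig, 9 of the 13 in this group had a log2 ratio above 0 in arousal over non-aestivation and 4 below (median 0.41).

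**Figure D2:**
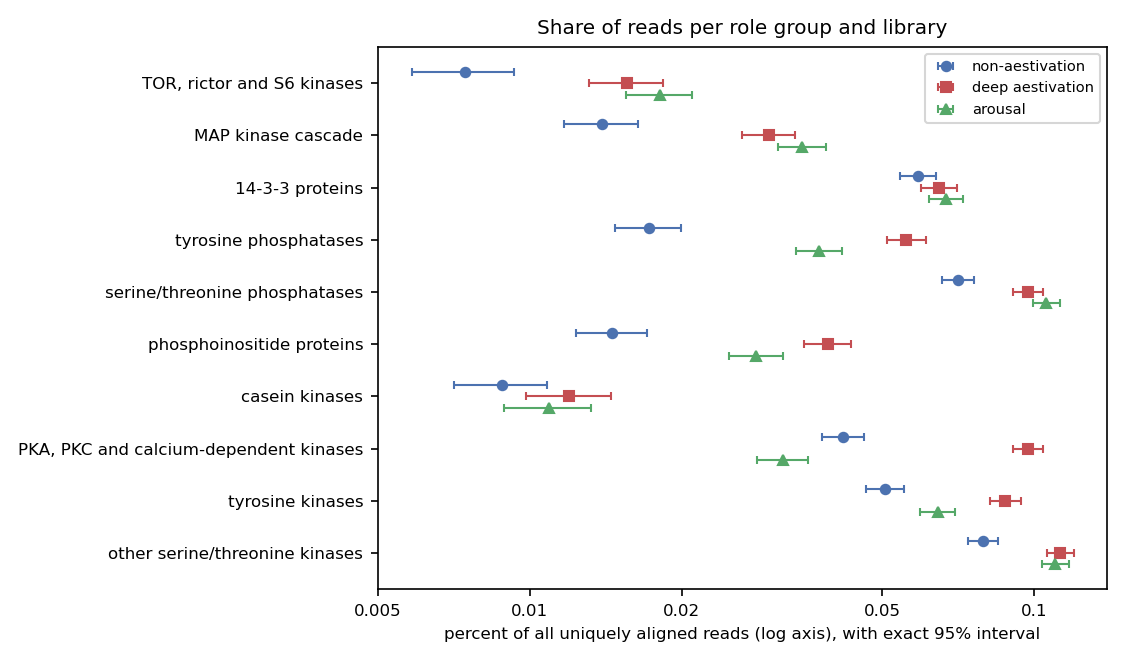
Percent of all uniquely aligned reads (x axis, log scale) summed over each role group in the non-aestivation, deep aestivation and arousal libraries, with exact 95% binomial intervals. The group with PKC holds 0.0973% in deep aestivation, above both other libraries, while the 14-3-3 proteins lie close together, at 0.0589%, 0.0647% and 0.0669% in the order of the legend.

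Receptor tyrosine phosphatases span the membrane, carry adhesion domains outside the cell and remove phosphate from tyrosines inside it. Of 19 tested tyrosine phosphatases, which include non-receptor forms, 8 were higher in deep aestivation than in non-aestivation and 0 lower (median log2 ratio 1.42, or 1.36 with bounds). Of all tested isotigs 5.19% were higher and 4.06% lower. The share higher was 13.4% among those with a protein match and at least 20 reads over both libraries. Protein tyrosine phosphatase kappa, which in mammals acts at cell contacts, was among the 10 most abundant members through a pair of isotigs. Isotig17957 had 28 reads in non-aestivation, 101 in deep aestivation and 73 at arousal, 4.13-fold higher in deep aestivation than in non-aestivation (2.70 to 6.52). Isotig19253 had 39, 92 and 65 reads in the same order, 2.70-fold higher (1.84 to 4.04). In both isotigs deep aestivation was highest and non-aestivation lowest, with arousal between.

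The gamma form of the receptor phosphatases showed the same order of libraries. Isotig13184 had 20 reads in non-aestivation, 77 in deep aestivation and 60 at arousal (4.41-fold in deep aestivation over non-aestivation, 2.67 to 7.62). Isotig14497 had 24, 65 and 37 reads (3.10-fold, 1.92 to 5.18). Summed, the pair with this match stood at 44, 142 and 97 reads, 3.70-fold higher (2.62 to 5.31). A match to receptor phosphatase sigma, known from growing nerve fibres in vertebrates, was the steepest of those with over 20 reads in deep aestivation. Isotig19885 had 4 reads in non-aestivation, 26 in deep aestivation and 16 at arousal (7.44-fold, 2.58 to 29.4). Its match covers the outer immunoglobulin domains of the protein, so the isotig need not hold the enzyme part.

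Receptor types alpha, R and F completed the 8 calls. Type alpha, an activator of Src kinases in mammals, had 13 reads in non-aestivation, 37 in deep aestivation and 32 at arousal in isotig11421. Type R had 8, 30 and 16 reads in isotig14166. Type F had 1, 13 and 10 reads in isotig20463, and this call was lost under 3 of 4 other scalings. A further isotig with the type F match, isotig20628, had 6, 9 and 8 reads and was not called. The 11 tested tyrosine phosphatases without a call had at most 13 reads in any library, and 2 of them had a log2 ratio below 0. Isotig10881, matching the non-receptor type 4, had 6 reads in non-aestivation and 13 in each of the other libraries.

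Tyrosine kinases put phosphate on the residues that these phosphatases clear. In deep aestivation over non-aestivation 4 of 25 tested were higher and 0 lower, with a median log2 ratio of 0.96. Of all tested isotigs 5.19% were higher and 4.06% lower. Among those with a protein match and at least 20 reads over both libraries, 13.4% were higher. Src kinases, which pass on signals from adhesion and receptors, gave the calls with the most reads. The Src-type isotig18560 had 18 reads in non-aestivation, 71 in deep aestivation and 74 at arousal, 4.52-fold higher in deep aestivation (2.66 to 8.05) and 4.45-fold higher in arousal (2.63 to 7.92), each over non-aestivation. The Src family isotig09117 had 39, 89 and 69 reads in stage order. For the Src-type isotig the deep aestivation and arousal libraries were level, at 88.3 and 86.9 RPKM.

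Fer, a kinase of cell adhesion and the cytoskeleton, was spread over several isotigs. Isotig09633 had 13 reads in non-aestivation, 35 in deep aestivation and 16 at arousal, and its call was lost with median-ratio and TMM scaling. Isotig17420, the tyrosine kinase isotig with the highest mean RPKM, had 88, 133 and 80 reads and was not called. A partial tyrosine kinase match, isotig28360, had 7, 32 and 16 reads (5.24-fold in deep aestivation over non-aestivation, 2.27 to 14.1). Other members stood level or went the other way. The receptor kinase Cad96Ca-like isotig06184 had 147 reads in non-aestivation, 152 in deep aestivation and 106 at arousal, and a match to c-src tyrosine kinase, isotig20747, had 15, 9 and 8.

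**Figure D3:**
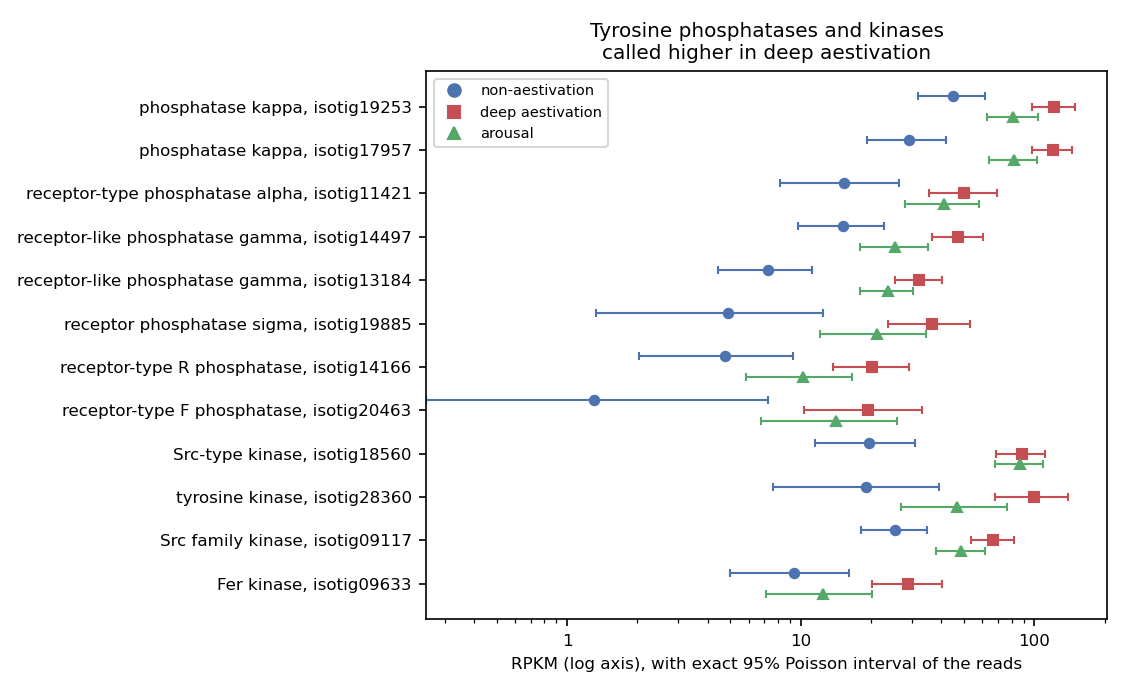
RPKM (x axis, log scale) in the 3 libraries with exact 95% Poisson intervals for the 8 tyrosine phosphatases (upper rows) and 4 tyrosine kinases (lower rows) called higher in deep aestivation than in non-aestivation; intervals that reach the left edge go on below it. The rows were chosen for their call in deep aestivation over non-aestivation, so the order of that pair is set by the choice. In every row non-aestivation is lowest and deep aestivation is highest. The Src-type kinase is nearly level between deep aestivation (88.3 RPKM) and arousal (86.9 RPKM).

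Class I phosphoinositide 3-kinases stand between tyrosine signals and Akt, and the group of phosphoinositide proteins also holds other types. All 9 phosphoinositide proteins passed the filter, and 5 were higher in deep aestivation than in non-aestivation, 0 lower (median log2 ratio 1.70). Of all tested isotigs 5.19% were higher and 4.06% lower. The share higher was 13.4% among those with a protein match and at least 20 reads over both libraries. Isotigs matching the catalytic beta subunit of class I phosphoinositide 3-kinase made up 3 of the calls. Isotig14736 had 16 reads in non-aestivation, 62 in deep aestivation and 53 at arousal. Isotig14257 had 23, 60 and 39 reads, and isotig23021 had 10, 29 and 24. Summed, the catalytic beta subunit was at 49 reads in non-aestivation, 151 in deep aestivation and 116 at arousal, 3.53-fold higher in deep aestivation than in non-aestivation (2.54 to 4.98). On its own, isotig23021 lost its call under 3 of 4 other scalings.

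The other calls of this group were a phosphoinositide 3-kinase without a named class (isotig16985; 15 reads in non-aestivation, 43 in deep aestivation and 21 at arousal) and a phosphoinositide-binding protein with a pleckstrin homology domain (isotig25873; 9, 33 and 18 reads). Phosphoinositide dependent kinase-1, which switches on Akt and S6 kinase, had 5 reads in non-aestivation, 19 in deep aestivation and 6 at arousal (isotig06669) and was not called. The phosphoinositide 3-kinase adapter protein 1 (isotig13525) had 63, 81 and 75 reads and the lowest ratio of the group, a log2 ratio of 0.55. A catalytic phosphatidylinositol 3-kinase 3 match, in mammals the class that acts in autophagy and vesicle traffic, had 6 reads in non-aestivation, 14 in deep aestivation and 26 at arousal (isotig16752). It was higher in arousal than in non-aestivation, 4.69-fold (1.89 to 13.9).

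The TOR subgroup held 8 isotigs, all of which passed the filter, and none was called in deep aestivation over non-aestivation. Their median log2 ratio was 1.00, and all 8 had a ratio above 0, as had 10204 of all 18352 tested isotigs. The lowest of the 8, isotig10596, had 1 read in each library and a log2 ratio of 0.16, the same as the median of all isotigs. TOR, the kinase that couples nutrients to growth, was matched by a pair of isotigs. Isotig21189 had 4 reads in non-aestivation, 17 in deep aestivation and 11 at arousal, and isotig23901 had 10, 16 and 14. Summed, TOR stood at 14, 33 and 25 reads, a 2.70-fold share in deep aestivation over non-aestivation (1.41 to 5.46). Rictor, the partner that defines the second TOR complex, had 7, 16 and 24 reads in isotig17866 and 3, 6 and 7 in isotig25960, which summed to 10, 22 and 31. The summed rictor share was 2.52-fold in deep aestivation over non-aestivation (1.14 to 5.96) and 3.35-fold in arousal over non-aestivation (1.60 to 7.67).

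S6 kinases act below TOR or, for the p90 form, below the MAP kinase ERK. The p70 S6 kinase, the classical TOR substrate, had 28 reads in non-aestivation, 43 in deep aestivation and 65 at arousal (isotig13410). It was higher in arousal than in non-aestivation, 2.51-fold (1.59 to 4.06), and is the only member of the subgroup with a call in any comparison, as 1 of 8. The p90 S6 kinase had 21, 34 and 41 reads in isotig10595, and isotig10596 had 1 read in each library. The 52 kDa S6 kinase match (isotig23089) had 2, 6 and 8 reads. In 4 of the 8 isotigs (isotig21189, isotig17866, isotig13410 and isotig10595) the 95% interval of deep aestivation over non-aestivation excluded equal shares, and none met the stricter rule for a call.

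Partners of TOR outside the rule were few. Of 4 tested isotigs 1 was higher in deep aestivation than in non-aestivation and 0 lower, against 5.19% and 4.06% of all isotigs. It was the Unc-51-like kinase 1 match, which in other animals starts autophagy when TOR is low. Isotig13589 had 2 reads in non-aestivation, 33 in deep aestivation and 11 at arousal, and was also lower in arousal than in deep aestivation. Sestrin 1 had 5, 8 and 10 reads, folliculin 14, 31 and 19, and the cap-binding factor eIF4E 43, 26 and 46, with no call. The insulin-like peptide receptor had 1 read, in deep aestivation.

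**Figure D4:**
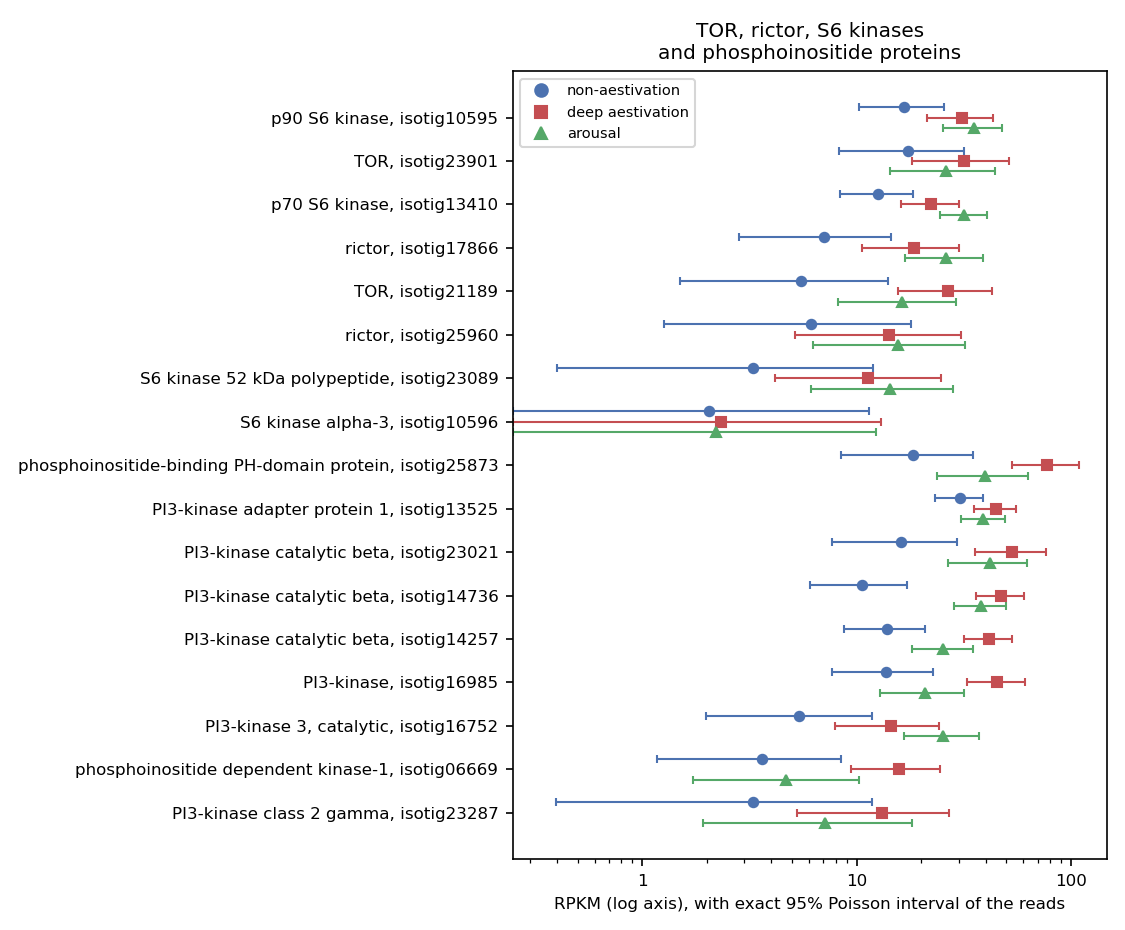
RPKM (x axis, log scale) in the 3 libraries with exact 95% Poisson intervals for the 8 isotigs of the TOR subgroup (upper rows) and the 9 phosphoinositide proteins (lower rows); intervals that reach the left edge go on below it. The catalytic beta isotigs of phosphoinositide 3-kinase lie between 41.4 and 53.3 RPKM in deep aestivation and between 10.6 and 16.1 RPKM in non-aestivation, while the intervals of most TOR, rictor and S6 kinase isotigs overlap between libraries.

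MAP kinases work in a chain of 3 kinases that carries growth and stress signals to the nucleus. Of 12 isotigs, all tested, 2 were higher in deep aestivation than in non-aestivation and 0 lower (median log2 ratio 1.36, or 1.02 with bounds). Of all tested isotigs 5.19% were higher and 4.06% lower. Among those with a protein match and at least 20 reads over both libraries, 13.4% were higher. The end of the chain, extracellular signal-regulated kinase (ERK), had 35 reads in non-aestivation, 83 in deep aestivation and 146 at arousal (isotig15861). It was 2.72-fold higher in deep aestivation (1.81 to 4.16) and 4.51-fold higher in arousal (3.10 to 6.73), each over non-aestivation. In arousal over deep aestivation its ratio was 1.66 (1.26 to 2.20), below 2-fold. ERK was thus highest in arousal and lowest in non-aestivation.

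A MAP kinase kinase kinase, the first step of the chain, had 8 reads in non-aestivation, 31 in deep aestivation and 22 at arousal (isotig23279; 4.44-fold in deep aestivation over non-aestivation, 2.00 to 11.2). MAP kinase kinase 1, the middle step above ERK in mammals, had 3, 16 and 23 reads (isotig17245). It was higher in arousal than in non-aestivation, 8.30-fold (2.51 to 43.2), and not called in deep aestivation. MAP kinase kinase 2, by contrast, was near level with 52, 57 and 54 reads (isotig16263). The lowest of the group was a MAP kinase 7 match with 6, 5 and 9 reads (isotig22651), and a MAP kinase kinase kinase 1 match had 4, 12 and 5 (isotig18486).

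Among 17 inputs and outputs of the chain outside the rule, 6 were higher in deep aestivation than in non-aestivation and 0 lower, against 5.19% and 4.06% of all isotigs. Of all 8962 tested isotigs with a protein match, 666 were higher and 337 lower. The 6 isotigs of the list called higher stand for 4 matches. In arousal 1 was lower than in deep aestivation, against 5.31%. B-raf, a kinase above MAP kinase kinase, had 8 reads in non-aestivation, 26 in deep aestivation and 21 at arousal. Dual specificity phosphatase 7, which in mammals switches ERK off, had 22, 58 and 30. The other calls were transcription factors: 3 isotigs with 1 shared match to Creb3L3, in mammals a factor anchored in the endoplasmic reticulum, and activating transcription factor 5 with 1194, 2182 and 994 reads. Rac1 had 190, 200 and 179 reads, with no call.

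Protein kinase C, protein kinase A and calmodulin-dependent kinases answer to lipids, cAMP and calcium. All 13 isotigs passed the filter, and 5 were higher in deep aestivation than in non-aestivation, 0 lower (median log2 ratio 1.29). Of all tested isotigs 5.19% were higher and 4.06% lower. The share higher was 13.4% among those with a protein match and at least 20 reads over both libraries. The group with PKC held all 4 calls of the members in arousal over deep aestivation, each of them lower in arousal. They are 4 of 149 members (2.68%), against 5.31% of all tested isotigs, and 0 members were higher in arousal, against 3.37%. Among isotigs with a protein match and at least 20 reads over both libraries, 4 of 91 members (4.4%) were lower, against 8.63%, and 0 were higher, against 8.41%. The median of the group in arousal over deep aestivation was -0.95, against -0.24 for all members and -0.16 for all isotigs. Isotig03795, isotig03797 and isotig03798 hold all of the group's 4 calls in this comparison except that of isotig13430. These share 1 best match, protein kinase C delta, which counts as 4 of the 13 isotigs in the median.

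Protein kinase C delta, a lipid-activated kinase that in mammals needs no calcium, was the match of this group with the most reads. Isotig03795 had 237 reads in non-aestivation, 476 in deep aestivation and 106 at arousal. It was 2.30-fold higher in deep aestivation than in non-aestivation (1.96 to 2.70) and 4.75-fold lower in arousal than in deep aestivation (3.84 to 5.92). Deep aestivation was thus apart from both other libraries, which holds under either reading of the crossed labels. Isotig03797 had 42, 49 and 0 reads, and against the floor of 3 reads in arousal it was at least 17.3-fold lower there than in deep aestivation and at least 12.9-fold lower than in non-aestivation. The exact 95% intervals of these ratios begin lower, at 13.5-fold and 10.1-fold. Isotig03798 had 34, 51 and 13 reads and was lower in arousal than in deep aestivation, 4.15-fold (2.23 to 8.32). Isotig03796 had 1, 14 and 4 reads and was higher in deep aestivation than in non-aestivation, 16.0-fold with an interval of 2.44 to 678.

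These 4 isotigs share 1 best match and could divide the reads of 1 gene between them. Summed, they had 314 reads in non-aestivation, 590 in deep aestivation and 123 at arousal, 2.15-fold higher in deep aestivation than in non-aestivation (1.87 to 2.48) and 5.08-fold lower in arousal than in deep aestivation (4.17 to 6.22). Arousal was also 2.36-fold lower than non-aestivation (1.91 to 2.93). The E-values of the match lay between 4.77e-28 and 8.50e-28. The reads sat on part of the sequence: in isotig03795 the 476 reads of deep aestivation covered 38.2% of the 1434 bases and the 237 reads of non-aestivation covered 36.7%.

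Another protein kinase C match was also highest in deep aestivation, with reads over more of its length. Isotig13430 had 34 reads in non-aestivation, 74 in deep aestivation and 32 at arousal, 2.49-fold higher in deep aestivation than in non-aestivation (1.64 to 3.86) and 2.45-fold lower in arousal than in deep aestivation (1.60 to 3.83). Arousal and non-aestivation were level, at 15.7 and 15.5 RPKM. The deep aestivation reads covered 81.7% of its 2151 bases. These 2 isotigs, isotig03795 and isotig13430, were the only members called higher in deep aestivation than in both other libraries, 2 of 149 (1.34%), against 1.95% of all tested isotigs. No member was lower than in both, against 1.16%. Both shares were near or under the background.

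Several other kinases of the group had more reads in arousal than in non-aestivation. The protein kinase C isoform isotig23239 had 12 reads in non-aestivation, 47 in deep aestivation and 27 at arousal (4.49-fold in deep aestivation over non-aestivation, 2.34 to 9.29), while isotig21262 with the same match had 18, 25 and 7 and no call. A protein kinase C-related kinase had 21, 64 and 50 reads (isotig13727). The catalytic beta subunit of protein kinase A, the cAMP-dependent kinase, had 10, 28 and 30 reads (isotig21565). Both were higher in arousal than in non-aestivation, at 2.58-fold (1.52 to 4.52) and 3.25-fold (1.54 to 7.44). A protein kinase C nu match had 3, 12 and 12 reads (isotig08651).

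**Figure D5:**
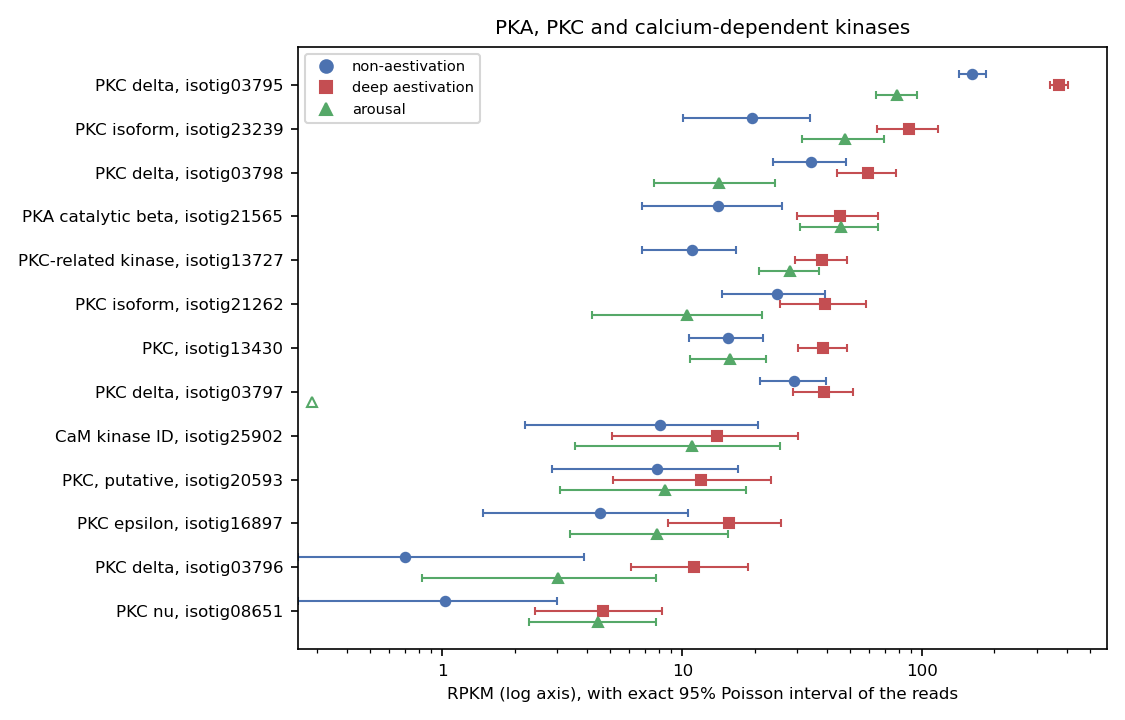
RPKM (x axis, log scale) in the 3 libraries with exact 95% Poisson intervals for the 13 isotigs of the group with PKA, PKC and calcium-dependent kinases; the open triangle at the left edge stands for 0 reads in arousal, and intervals that reach the edge go on below it. The PKC delta isotig03795 stands at 372 RPKM in deep aestivation, above 162 RPKM in non-aestivation and 78.2 RPKM in arousal, while the PKA isotig21565 is level in deep aestivation (45.3 RPKM) and arousal (45.9 RPKM).

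Inputs of these kinases were counted in the same comparisons. Of 30 tested isotigs for cyclases, phosphodiesterases, G protein subunits, calmodulin and calcineurin, 0 were higher in deep aestivation than in non-aestivation and 3 lower, against 5.19% and 4.06% of all isotigs. Their median log2 ratio was 0.24, against 0.16 for all isotigs, with 20 of 30 above 0. Calmodulin, the calcium sensor, was lower in a pair of isotigs, with 2769 reads in non-aestivation, 1075 in deep aestivation and 1882 at arousal in the larger. A guanylate cyclase match had 80, 3 and 2 reads. In arousal over deep aestivation 1 of the 30 was higher and 2 lower, against 3.37% and 5.31% of all isotigs. In arousal over non-aestivation 0 were higher and 1 lower, against 3.84% and 5.21%. G protein beta, with 614, 615 and 730 reads, was not called.

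The group named other serine/threonine kinases takes every member that fitted no other role group. It therefore also holds kinase partners and a dual specificity kinase match. These members form the largest group, with 38 isotigs of which 35 were tested. They held 4 calls higher in deep aestivation than in non-aestivation and 0 lower (median log2 ratio 0.84). Of all tested isotigs 5.19% were higher and 4.06% lower. Among those with a protein match and at least 20 reads over both libraries, 13.4% were higher. TAO1, which in mammals activates stress MAP kinases, had the highest ratio of all members. Isotig18822 had 1 read in non-aestivation, 20 in deep aestivation and 17 at arousal, a 22.9-fold share in deep aestivation over non-aestivation whose interval runs from 3.66 to 949. A match to kinase 38 (NDR2), of a family that in mammals shapes cell growth and division, had 21, 62 and 67 reads (isotig04375). Krs-2, a stress-responsive kinase of the STE20 family, had 21, 55 and 38 reads (isotig18354). A STE20-like kinase had 29, 72 and 50 (isotig09573). In all 4 isotigs non-aestivation was lowest, where the call itself sets it below deep aestivation. A further Krs-2 isotig, isotig16837, had 38, 66 and 62 reads and was just under 2-fold, at a log2 ratio of 0.98. The splicing kinase SRPK1 had 6, 22 and 9 reads (isotig22348) and was not called.

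Other members of this group were level or lower in reads in deep aestivation. PINK1, the kinase that marks damaged mitochondria, was its most abundant isotig, with 283 reads in non-aestivation, 205 in deep aestivation and 324 at arousal (isotig13440). A regulatory subunit of the cell-cycle kinase CDC28, isotig15054, had 38, 12 and 27 reads and the lowest ratio among members of the group with at least 20 reads, a log2 ratio of -1.42. It was not called with the main scaling and was called lower with 3 of 4 others. A death associated protein kinase 1 match had 13, 9 and 6 reads (isotig19644). Casein kinases, constitutive kinases with many targets, had no call in 3 tested isotigs. Casein kinase 1 alpha had 57, 89 and 72 reads (isotig15194), and casein kinase 1 epsilon had 32, 14 and 29 (isotig04216).

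Serine/threonine phosphatases had the lowest median of the role groups after the 14-3-3 proteins. None of the 22 tested isotigs was called in any of the 3 comparisons, and their median log2 ratio in deep aestivation over non-aestivation was 0.54. The catalytic subunit of protein phosphatase 2A, the main serine/threonine phosphatase of most cells, had 204 reads in non-aestivation, 285 in deep aestivation and 305 at arousal (isotig13997), 1.60-fold in deep aestivation over non-aestivation (1.33 to 1.92). Its scaffold subunit A alpha had 127, 176 and 190 reads (isotig23476; 1.59-fold, 1.26 to 2.01), and a smaller isotig with that match, isotig10890, had 14, 14 and 27. Both intervals excluded equal shares at 95%, and both folds stayed under the threshold. Both subunits were level between deep aestivation and arousal.

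Protein phosphatase 1 gamma, a catalytic subunit with roles in glycogen metabolism and muscle, had 49 reads in non-aestivation, 52 in deep aestivation and 89 at arousal (isotig19628). Its log2 ratio in arousal over non-aestivation was 0.97, and it was called higher under each of 4 other scalings. The inhibitor subunit 8 of protein phosphatase 1 went the other way with 55, 26 and 29 reads (isotig15131), and phosphatase methylesterase 1, which modifies protein phosphatase 2A, had 16, 12 and 5 (isotig14022). The highest ratio among isotigs of the group with at least 20 reads was that of a T-cell activation phosphatase 2C-like match with 6, 20 and 13 reads (isotig20065). The 7 isotigs of this group that failed the filter had at most 2 reads in a library.

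The 14-3-3 proteins bind phosphorylated serine and threonine and hold their targets in place. They had the lowest median log2 ratio of the 10 role groups in deep aestivation over non-aestivation, 0.49. Isotig09676 was the most abundant member of all in non-aestivation and arousal per length, with 453 reads in non-aestivation, 352 in deep aestivation and 428 at arousal, or 393, 350 and 402 RPKM. The zeta form had 105, 172 and 142 reads (isotig19888; 1.88-fold in deep aestivation over non-aestivation, 1.46 to 2.41) and the epsilon form 44, 54 and 62 (isotig09813). None of the 3 was called in any comparison.

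Arousal was last compared with non-aestivation, a comparison that shares its libraries with both others. Of 149 members, 12 (8.05%) were higher and 2 (1.34%) lower, against 3.84% and 5.21% of all tested isotigs, and the members' median log2 ratio was 0.67, against -0.04. Among isotigs with a protein match and at least 20 reads over both libraries the share was 11 of 81 members (13.6%), against 11.3%, and 2 of 81 (2.47%) were lower, against 5.87%. Among these better covered isotigs the share of members called higher was near the background. The 12 were ERK, MAP kinase kinase 1, TAO1, the Src-type kinase, NDR2, p70 S6 kinase, 2 phosphoinositide 3-kinases, the protein kinase C-related kinase, the protein kinase A subunit and phosphatases kappa and gamma. The 2 lower were the PKC delta isotigs isotig03795 and isotig03797, and the call of isotig03795 was lost under each of 4 other scalings. The count of higher members ranged from 13 to 19 under those scalings.

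Kinases that the name rule leaves out were counted as a further list, 59 of 69 tested, which also holds the Unc-51-like kinase 1 isotig13589 given above with its calls. In deep aestivation over non-aestivation 11 were higher and 0 lower, against 5.19% and 4.06% of all isotigs, with a median log2 ratio of 0.66. Each isotig of this list has a protein match. Of all 8962 tested isotigs with a match, 666 were higher and 337 lower, with a median of 0.24. In arousal over deep aestivation 0 were higher and 2 lower, against 3.37% and 5.31%. In arousal over non-aestivation 0 were higher and 1 lower, against 3.84% and 5.21%. Focal adhesion kinase, an adhesion partner of Src, was called in 1 isotig with 4 reads in non-aestivation, 21 in deep aestivation and 5 at arousal (isotig16166). It was not called in its most abundant isotig, with 83, 122 and 76 reads (isotig13267).

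The tissue markers moved between these libraries as well. Summed over 23 isotigs, intestinal epithelium markers made up 4.53% of reads in non-aestivation, 12.4% in deep aestivation and 17.4% at arousal, so markers of the labelled tissue were present in each library. Coelomocyte markers (57 isotigs) made up 0.326% in non-aestivation, 0.532% in deep aestivation and 0.275% at arousal. Neuron markers (36 isotigs) made up 0.0806%, 0.124% and 0.0892% in the same order, muscle markers (41 isotigs) 0.215%, 0.167% and 0.144%, and gonad markers (11 isotigs) 0.0526%, 0.164% and 0.255%. A few isotigs carried some of these sums. Without major yolk protein 1, a fatty acid binding protein and an apolipoprotein B match, the other 20 epithelium isotigs made up 0.286% in non-aestivation, 0.497% in deep aestivation and 0.351% at arousal. The median log2 ratio of the epithelium list in deep aestivation over non-aestivation was -0.057. Without its 2 vitellogenin isotigs the gonad list had 16, 30 and 20 reads in stage order. Without 1 titin-like isotig the muscle list had 1396, 1241 and 1180 reads in stage order, or 0.139% of the library in deep aestivation and 0.137% in non-aestivation. Without 1 C-type lectin isotig the coelomocyte list made up 0.245%, 0.300% and 0.209%. In the neuron list 1 acetylcholinesterase match (isotig14009) held 38 of 824 reads in non-aestivation, 233 of 1110 in deep aestivation and 54 of 843 at arousal. Without the 3 isotigs with the most reads, this one among them, the neuron list made up 0.0489%, 0.0755% and 0.0596%. In deep aestivation over non-aestivation 9 of 50 tested coelomocyte isotigs were higher and 4 lower, and 6 of 33 neuron isotigs were higher and 1 lower. Epithelium isotigs were higher in 7 of 22 and lower in 3, muscle isotigs higher in 2 of 31 and lower in 4, and gonad isotigs higher in 2 of 7 and lower in 0. The shares over all tested isotigs were 5.19% higher and 4.06% lower. For the 8962 tested isotigs with a protein match, 666 were higher and 337 lower. Of the coelomocyte isotigs, 51 had reads in non-aestivation, 47 in deep aestivation and 45 at arousal, and of the neuron isotigs 34, 34 and 30. The part of these shifts in the kinase and phosphatase values was not tested.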

How the data were processed

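Intestinal mRNA was sequenced in 1 library per stage. The deposited tables give, per isotig, the count of uniquely aligned reads, the percent of its length covered and the RPKM, which the authors computed from the library total per the file headers; recomputed RPKM matched within floating-point error. CASAVA 1.5 is named in the submitters' processing notes. Strand, aligner and counting settings: not given in the sources used here. Matches, E-values and ontology terms are the authors'. Here, log2 ratios of RPKM + 0.5 were taken for isotigs with a mean of at least 1 RPKM. Calls needed a 2-fold ratio and an exact conditional binomial interval at a 0.001 error level. Printed intervals are at 95%, and the floor is 3 reads, or 0.000293% of the reads in non-aestivation, 0.000336% in deep aestivation and 0.000318% at arousal. No p-value, SD or count model was used, since each stage has 1 library.

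Members, role groups, 4 partner lists and 5 marker lists were chosen with earlier results of these data known. Named isotigs were, per comparison, the 5 highest and 5 lowest called with at least 20 reads, all of the TOR subgroup, the extremes of each role group with at least 20 reads, the 10 with the highest mean RPKM and those apart in deep aestivation from both others. Further isotigs were named after their values were seen. Alternatives changed the pseudocount, filter, scaling (edgeR 4.0.16 supplied the TMM factors), fold, interval, summing by match and the member rule. The calling steps were tested on simulated data. Python 3.11.15, numpy 2.4.6, pandas 2.3.3, scipy 1.17.1, matplotlib 3.10.9 and R 4.3.3 were used.

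A few results are not reported here.
Marker sums without their most abundant isotigs were added after seeing the data.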

Additional observations from a re-analysis of the deposited data

How the results depend on the processing

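In deep aestivation over non-aestivation, 28 of 149 tested members were higher and 0 lower. Median-ratio, upper-quartile and TMM scaling each gave 1 lower, the CDC28 subunit isotig15054. The 95% interval gave 44 members higher and 1 lower, against 11.3% and 7.79% of all tested isotigs. The other settings gave 19 to 34 higher. In arousal over deep aestivation, with 0 higher and 4 lower, the same 3 scalings and the 1.5-fold threshold each gave 1 higher. The 95% interval gave 3 members higher and 14 lower, against 6.45% and 10.7% of all tested isotigs. The members' median of -0.24 was -0.053 with median-ratio and -0.042 with TMM scaling. In arousal over non-aestivation, with 12 higher and 2 lower, each of the 4 other scalings, the 3-fold threshold and summing isotigs with 1 match gave 1 lower. Leaving the 20 most abundant isotigs out of the total gave 19 members higher, against 4.86% of all tested isotigs. The 95% interval gave 28 members higher and 5 lower, against 8.06% and 9.76%. The 2 members higher in deep aestivation than in both other libraries were 0 at 3-fold and 8 with the 95% interval, which also gave 1 lower than in both. The share of all isotigs apart in this way was not counted at these settings. The cause of these shifts was not tested, apart from the wider or narrower threshold itself. Of 28 called named values, 8 lost the call at 3-fold, 2 with each of TMM, median-ratio and upper-quartile scaling and 1 with the most abundant isotigs left out. Scaling moved the median of all isotigs in deep aestivation over non-aestivation to 0.04, against 0.16, with TMM. Over all isotigs the calls in that comparison were 952 higher and 745 lower, and 721 and 954 with median-ratio scaling. In arousal over deep aestivation they were 619 and 975, and 839 and 732 with median-ratio scaling. In arousal over non-aestivation they were 704 and 956, and 891 and 744 without the 20 most abundant isotigs. No paired analysis was possible because each stage has 1 library. Depth limits the members with few reads, and 104 of 169 had at least 20 over the 3 libraries.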

Other observations

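Kinases outside the name rule included numb-associated kinase (isotig15044), a regulator of endocytosis in other animals, with 1 read in non-aestivation, 19 in deep aestivation and 10 at arousal. Maternal embryonic leucine zipper kinase (isotig21741) had 3, 19 and 10 reads in the same order. Myosin light chain kinase (isotig13077), which drives contraction of smooth muscle, had 371, 284 and 119 reads. Another isotig with a myosin light chain kinase match, isotig13095, had 44, 87 and 49 reads and was higher in deep aestivation than in non-aestivation, 2.26-fold (1.56 to 3.33).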
